A study of Mus musculus with 12 samples.

Results

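Probes for 3 enzymes of the malate-aspartate shuttle, Got1, Got2 and Mdh1, were followed in mouse liver during fasting. They were chosen by the gene names in the array files: A_65_P16895 (below, probe A) and A_65_P03532 (probe B) are annotated as Got1, A_65_P18079 as Got2 and A_65_P18446 as Mdh1, the last under its older name Mor2. These are 3 of the 6633 genes that could be named on the array, and 4 of its 20280 probes. All 4 were well above background in the liver sample on each of the 12 arrays, and none was saturated. Male FVB mice of 6 weeks were either fed or deprived of chow for 12, 24 or 72 hours, and all were housed in metabolic cages and kept warm by an infrared lamp. Each group had 3 arrays, every array carried RNA pooled from 2 livers (Cy3), and RNA of 6 fed livers (Cy5) was the common reference. The dyes were never exchanged. An SD is therefore a spread between pools of livers and not between mice.

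The malate-aspartate shuttle carries the electrons of cytosolic NADH into the mitochondria. Mdh1 reduces oxaloacetate to malate in the cytosol, malate enters the mitochondrion, and Mdh2 oxidizes it again. Got2 then converts oxaloacetate with glutamate to aspartate, which leaves through the aspartate-glutamate carriers Slc25a13 (citrin, the isoform of liver) and Slc25a12, and Got1 regenerates oxaloacetate in the cytosol. In fasting liver, the same enzymes and carriers bring carbon for gluconeogenesis and aspartate nitrogen for the urea cycle to the cytosol.

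To set the genes of the cytosolic and the mitochondrial enzymes beside each other, the 250 bases before the annotated start of each are shown, from RefSeq (build GRCm38.p6), 5′ to 3′ on the strand of the gene. The sequences of the array probes are not used here. Capitals mark CCAAT boxes, read on either strand (CCAAT or ATTGG). All 3 genes lie on the minus strand, with Got1 at chr19:43524606-43524855, Got2 at chr8:95888402-95888651 and Mdh1 at chr11:21571935-21572184.
Got1: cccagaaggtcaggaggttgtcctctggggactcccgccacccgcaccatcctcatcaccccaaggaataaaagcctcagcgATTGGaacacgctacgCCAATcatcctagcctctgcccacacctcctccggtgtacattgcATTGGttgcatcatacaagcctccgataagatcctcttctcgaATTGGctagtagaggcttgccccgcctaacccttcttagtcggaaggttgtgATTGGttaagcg
Got2: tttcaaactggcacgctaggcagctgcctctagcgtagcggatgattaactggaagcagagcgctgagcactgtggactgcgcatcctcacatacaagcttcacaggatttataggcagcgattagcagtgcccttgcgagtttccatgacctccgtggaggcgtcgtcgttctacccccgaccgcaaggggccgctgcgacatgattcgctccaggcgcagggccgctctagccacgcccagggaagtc
Mdh1: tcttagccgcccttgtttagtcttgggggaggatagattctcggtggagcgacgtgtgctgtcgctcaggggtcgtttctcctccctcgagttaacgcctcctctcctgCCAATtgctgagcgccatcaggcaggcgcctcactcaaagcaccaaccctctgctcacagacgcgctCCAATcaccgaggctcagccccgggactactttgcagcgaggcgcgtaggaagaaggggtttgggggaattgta
The Got1 promoter held 5 CCAAT boxes, that of Mdh1 2 and that of Got2 0. Of 32851 mouse promoters of the same length, 33.8% held at least 1, 10.1% at least 2 and 0.213% at least 5. A GC box (GGGCGG, both strands, in 32.7% of promoters) was present once in Mdh1 and a TATA box (TATAAA, in 12.4%) once in Got2. A cAMP response element (TGACGTCA, in 1.55%) or a forkhead element (GTAAACA, in 3.17%) was found in none of the 3 windows. These are matches of letters and were not tested for function.

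Replicate 2 of 12 hours and replicate 3 of 24 hours had the weakest sample signal of all arrays. Their median sample signal was 4.72 and 3.5 times the background, against 5.34 to 10.6 times on the other 10 arrays, and results are given with and without these low-signal arrays. The array images were quantified on 3 different days. On day 1 were both low-signal arrays and fed replicate 1. On day 2 were fed replicates 2 and 3 with the whole 72-hour group, and on day 3 the other arrays of 12 and 24 hours, without a fed array among them. Where the software had flagged a spot as an outlier its value was not used, which affected Got2 and Mdh1 on replicate 2 of 12 hours and Mdh1 on fed replicate 3. Flagged spots were most frequent in the fed group, at 24.7% on replicate 2 and 14.1% on replicate 3, against 0.345% to 6.29% on the other arrays. The hepatocyte markers with a named probe, Ttr, Apoa1 and Tdo2, were well above background on all arrays, and their mean log2 ratio per array was 0.19 to 0.36 in fed and -0.19 to 0.44 in fasted mice. They did not move together. At 72 hours Ttr was at 0.392-fold of fed mice (limma, adjusted p = 0.784, or 0.0417 without the low-signal arrays), Tdo2 at 1.82-fold (adjusted p = 1, or 0.158) and Apoa1 at 1.11-fold (adjusted p = 1, or 0.797). Skeletal and cardiac muscle also express Got1 and Mdh1. Of 5 muscle markers 4 had a probe (Acta1, Actc1, Ckm and Myh6), with a mean log2 ratio per array of -0.12 to 0.07 in fed and -0.69 to 0.69 in fasted mice. With all arrays none of the 4 had an unadjusted p under 0.05 in limma at any time point. Without the low-signal arrays Actc1 was at 0.61-fold at 12 hours and 0.538-fold at 24 hours (limma, unadjusted p = 0.0474 and 0.0173, adjusted p = 0.222 and 0.0907). Muscle markers were thus not called in either fit, and their part in the Got1 and Mdh1 values was not tested.

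Got1, the cytosolic aspartate aminotransferase, had higher levels on all 9 fasted arrays than on any fed array, with both probes. The log2 ratio of sample over reference for probe A was -0.14, 0.30 and -0.18 on the fed arrays. In order of replicate number, the ratios were 2.43, 1.20 and 3.19 after 12 hours, 3.50, 2.75 and 0.86 after 24 hours, and 4.67, 4.93 and 2.55 after 72 hours. The lowest value at 12 hours and at 24 hours came from the low-signal array, and the lowest at 72 hours from replicate 3. Before normalization, the background-corrected sample signal of this probe was 1072 to 1364 intensity units on the fed arrays and 5938 to 42200 at 72 hours, while its reference signal on the quantification day of the 72-hour arrays was 806 to 1047. In RNA of whole liver, more cells of one type and more RNA per cell cannot be told apart.

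**Figure D1:**
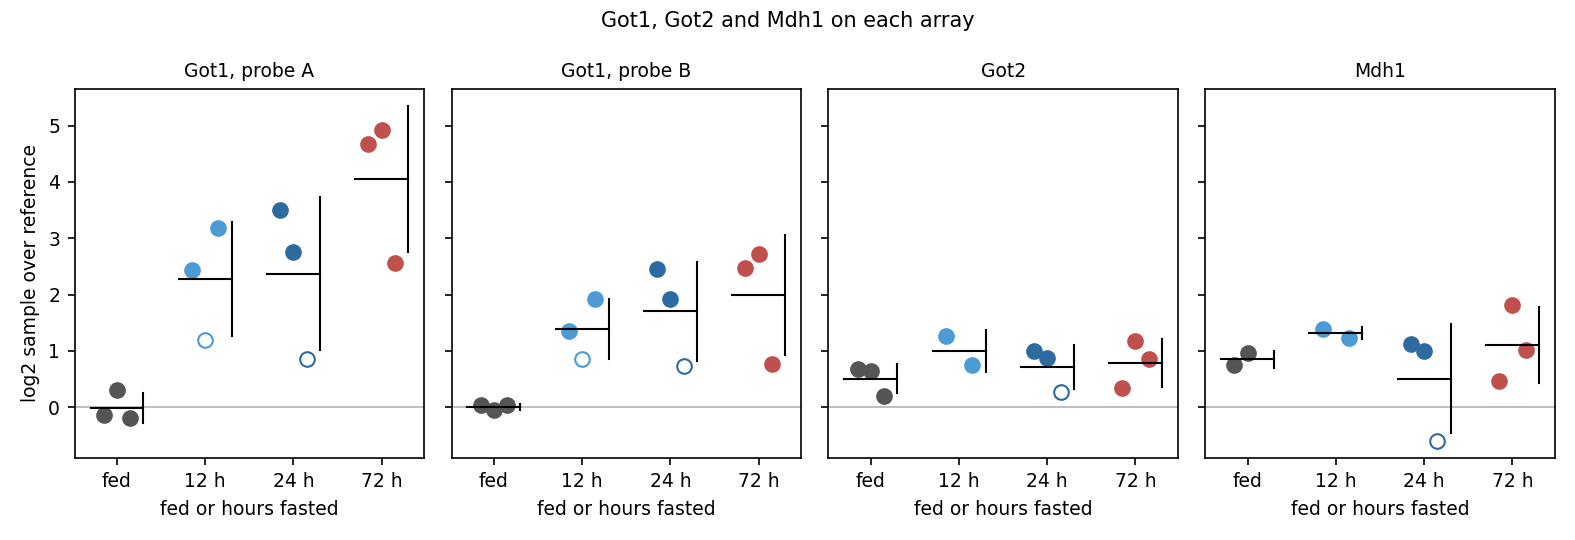
Log2 ratio of liver sample over fed reference for each of the 4 probes, by array, in fed mice and at each fasting time. Points are arrays (open for both low-signal arrays), horizontal lines are group means and vertical lines the SD. Both Got1 probes were higher on every fasted array than on the fed arrays, from 0.86 for probe A and 0.74 for probe B upwards. For Got2 and Mdh1 the fasted arrays overlapped with the fed arrays, except at 12 hours. There each had 2 usable arrays, both quantified on day 3 without a fed array. The flagged spots of replicate 2 of 12 hours, at 0.24 for Got2 and -1.63 for Mdh1, are not shown.

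Compared to the fed group, probe A of Got1 was 4.87-fold higher at 12 hours, 5.20-fold at 24 hours and 16.7-fold at 72 hours. On the log2 scale these differences were 2.28 ± 0.76, 2.38 ± 0.76 and 4.06 ± 0.76 (SE of limma's fit). In order of fold change, the probe had rank 11, 6 and 2 among the 20110, 20110 and 20081 probes tested. None of the differences passed the adjustment over all probes (limma, adjusted p = 0.956, 1 and 0.74), although the unadjusted p was 0.0124, 0.00997 and 0.000258. A probe was called where it changed at least 1.4-fold with an adjusted p under 0.05. By this rule 0 of the 4 member probes were called at any time point, where the share of all probes called was 0.00497% after 12 hours, 0.00497% after 24 hours and 0.00996% after 72 hours. With unadjusted p-values under 0.05, limma gave 2 of the 4 at each time point, which were the Got1 probes, and 3.92%, 3.04% and 1.55% of all probes at 12, 24 and 72 hours.

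With the cut-offs of the study applied to limma, an unadjusted p under 0.01 with a 1.4-fold change, 0 of the 4 probes were higher at 12 hours, 2 at 24 hours and 2 at 72 hours. Both were Got1 probes each time. The share of all probes that met this threshold and were higher was 0.378% after 12 hours, 0.413% after 24 hours and 0.314% after 72 hours.

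Without both low-signal arrays, Got1 probe A rose at each time point. The increase was 7.07-fold at 12 hours (adjusted p = 0.0351), 8.77-fold at 24 hours (adjusted p = 0.0137) and 16.7-fold at 72 hours (adjusted p = 0.00707), all in limma. Probe B then passed at 24 hours (4.52-fold, limma's adjusted p = 0.0198) and did not at 12 hours (3.11-fold, limma's adjusted p = 0.0767) or 72 hours (3.95-fold, limma's adjusted p = 0.0544). This made 1, 2 and 1 of the 4 probes called higher, against 1.71%, 5.21% and 0.687% of all probes at 12, 24 and 72 hours. In this fit the 12- and 24-hour groups came from day 3 and the fed group from days 1 and 2, so that day and fasting cannot be told apart at these times. The 72-hour group shared day 2 with 2 of the fed arrays. The 72-hour arrays were the same in both fits, so that the fold change was unchanged there and the spread between arrays was smaller.

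The other Got1 probe, probe B, had log2 ratios of 0.04, -0.05 and 0.04 on the fed arrays. Its values were 1.36, 0.86 and 1.93 at 12 hours, 2.45, 1.92 and 0.74 at 24 hours, and 2.47, 2.73 and 0.77 at 72 hours. The low-signal arrays and replicate 3 of 72 hours were lowest among the fasted ones, and still above all fed arrays. Pearson's r between the probes was 0.954 over 12 arrays, a description that includes the difference between fed and fasted. With all arrays, probe B was 2.59-fold higher at 12 hours, 3.23-fold at 24 hours and 3.95-fold at 72 hours (limma, unadjusted p = 0.0257, 0.00884 and 0.00344, adjusted p = 0.956, 1 and 1).

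**Figure D2:**
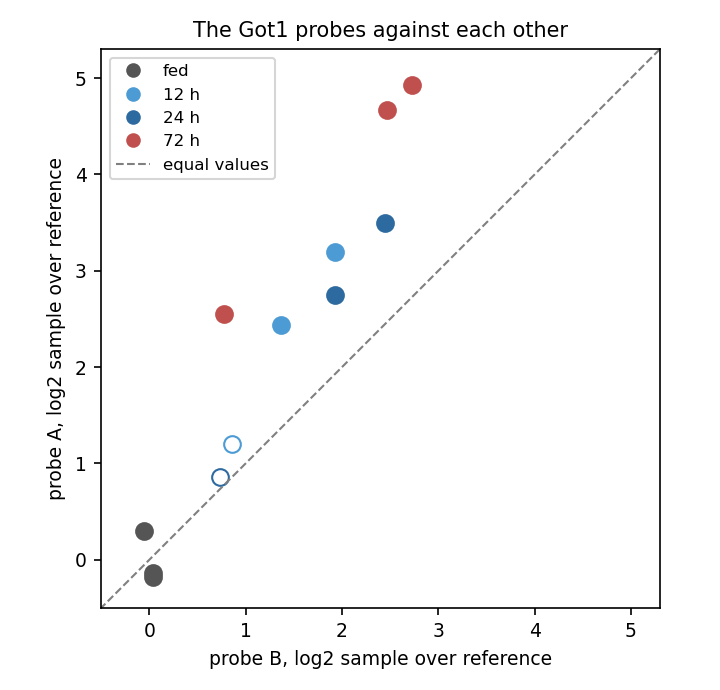
Log2 ratio of Got1 probe A (vertical axis) against that of Got1 probe B (horizontal axis), one point per array, coloured by group and open for the low-signal arrays. Points above the dashed line of equal values had a larger ratio on probe A, and the 3 arrays of 72 hours lay farthest above it, by 1.78 to 2.20.

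The magnitude of the Got1 response differed between its probes. The difference of the log2 ratios within an array, probe A minus probe B, was -0.02 ± 0.32 (SD, n = 3) in fed mice. After 12, 24 and 72 hours it amounted to 0.89 ± 0.49, 0.67 ± 0.48 and 2.06 ± 0.24 respectively, with 3 arrays each. Across all 9 fasted arrays the difference exceeded that of the fed arrays by 1.22 (exact two-sided permutation test, p = 0.0273, or 0.041 after adjustment for 3 such tests), and 7 of the 9 lay above the highest fed array. The exceptions were both low-signal arrays, and without them the excess was 1.50 and the p 0.00833, the smallest that test allows (exact permutation test). Leaving out replicate 1 or replicate 3 of the fed group gave an excess of 1.14 and 1.12, each with p = 0.109 in the exact permutation test on the remaining 2 fed arrays. For a single time point, 3 arrays against 3 cannot give a p below 0.1, which was reached at 72 hours (exact permutation test), where all 3 arrays lay above all fed arrays.

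The reference channel, which held the same RNA on all arrays, behaved unequally for the Got1 probes. The background-corrected reference signal of probe B was 711 to 1122 intensity units on day 1, 2773 to 4839 on day 2 and 836.5 to 1977 on day 3. That of probe A was 722.5 to 937, 805.5 to 1046.5 and 511 to 601 units. The reference signal of probe B thus moved with the quantification day more than that of probe A. On the fed arrays the sample signal of probe B moved too, from 1132 units on day 1 to 4795 and 4193 on day 2. That of probe A was 1071.5 on day 1 and 1239 and 1363.5 on day 2. The shift of probe B was therefore not confined to the reference channel, and its part in the difference between the probes was not tested. Within day 2, which held 2 fed arrays and all 72-hour arrays, probe A was higher at 72 hours by 3.99 and probe B by 1.99 on the log2 scale. Within day 1, the low-signal array of 12 hours exceeded the fed array by 1.34 and 0.82, and that of 24 hours by 1.00 and 0.70, for probes A and B respectively. With the day as a block, on the 5 fasted arrays of days 1 and 2 only, the excess of probe A over probe B was 1.43 (exact permutation within days, p = 0.0333, the smallest possible). Of these 5, the 3 arrays of 72 hours lay above the highest fed array (0.35). The arrays of 12 and 24 hours did not (0.34 and 0.13). Where on the Got1 transcript each probe lies is not given in the sources used here.

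**Figure D3:**
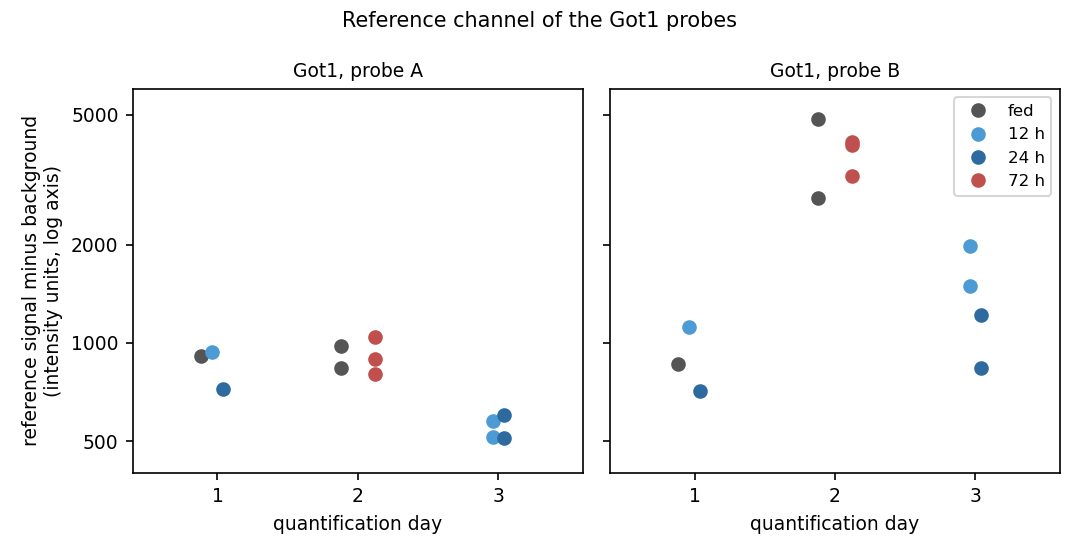
Background-corrected signal of the common fed reference (Cy5, log axis) for both Got1 probes, by the day on which the array images were quantified. Points are arrays, coloured by the group of the sample on the other channel. Probe B reached 2773 to 4839 units on day 2, and probe A did not exceed 1046.5 units on any day. The sample channel, which also moved with the day for probe B on the fed arrays, is not shown.

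Got2, the mitochondrial aspartate aminotransferase, had log2 ratios of 0.68, 0.64 and 0.21 in fed mice. On fasted arrays it had 1.27 and 0.74 at 12 hours (replicates 1 and 3), 1.01, 0.88 and 0.27 at 24 hours, and 0.34, 1.18 and 0.86 at 72 hours. At 24 and 72 hours the fasted arrays overlapped with the fed arrays. At 12 hours both usable arrays, quantified on a day without a fed array, lay above them. The ratio was above 0 in fed mice too, where fed liver was compared with fed liver. As the dyes were not exchanged, any dye effect of a probe would enter each of these levels. It would cancel in the differences between groups only if it was equal on all arrays, which was not tested. Compared to fed mice, the log2 fold change was 0.50 (95% confidence interval -0.20 to 1.20) at 12 hours, 0.21 (-0.42 to 0.84) at 24 hours and 0.28 (-0.35 to 0.91) at 72 hours, with adjusted p = 0.956, 1 and 1 in limma. These intervals do not show that Got2 was unaffected. When the day of quantification was a block, the values turned to -0.35 at 12 hours and -0.41 at 24 hours. Both are tied to fed mice only by day 1, with the low-signal array of 24 hours and 1 fed array. The Got2 pseudogene Got2-ps1, which has a probe of its own (A_65_P19605) and may share sequence with Got2, differed from the fed mean by -0.09, 0.18 and 0.13 on the log2 scale (limma, adjusted p = 0.978, 1 and 1).

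The probes of the cytosolic and mitochondrial aminotransferases differed in their response. The log2 ratio of Got1 probe A minus that of Got2 was -0.82, -0.34 and -0.39 on the fed arrays. On fasted arrays it was 1.17 and 2.45 at 12 hours, 2.49, 1.87 and 0.59 at 24 hours, and 4.33, 3.75 and 1.70 at 72 hours. All 8 fasted arrays with both values lay above all fed arrays, and the mean excess was 2.81 (exact two-sided permutation test, p = 0.00606, the smallest possible, or 0.0182 after adjustment for 3 tests). With Got1 probe B in place of probe A, the excess was 1.48 (exact permutation test, p = 0.0121), again with 8 of 8 fasted arrays above the fed arrays. Without both low-signal arrays it was 3.05 for probe A (exact permutation test, p = 0.00833, the smallest possible). With the day as a block, on days 1 and 2 only, it was 2.97 (exact permutation within days, p = 0.1, with 0.05 the smallest possible). Got2 had only 1 probe, and the excess of Got1 probe A over Got1 probe B was itself 1.22. A difference between the genes and a difference between probes therefore cannot be told apart here.

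**Figure D4:**
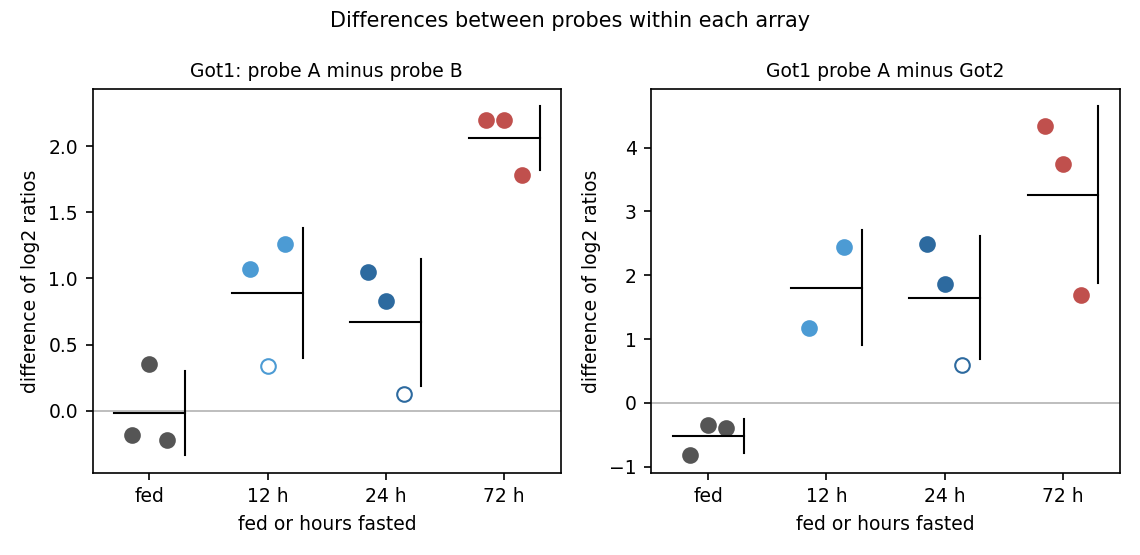
Differences of log2 ratios within each array, by group: Got1 probe A minus Got1 probe B on the left, and Got1 probe A minus Got2 on the right. Points are arrays (open for low-signal arrays), horizontal lines are means and vertical lines the SD. The difference to Got2 lay between -0.82 and -0.34 in fed mice and between 0.59 and 4.33 in fasted mice, so that the groups did not overlap.

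Mdh1, the cytosolic malate dehydrogenase, had log2 ratios of 0.75 and 0.96 on the usable fed arrays. It had 1.39 and 1.24 at 12 hours, 1.13, 1.00 and -0.60 at 24 hours, and 0.47, 1.81 and 1.02 at 72 hours. The usable arrays of 12 hours, quantified on a day without a fed array, lay above both fed arrays. Those of 72 hours overlapped with the fed arrays, and at 24 hours the low-signal array lay below all others. The log2 fold change was 0.46 (-0.86 to 1.79) at 12 hours, -0.34 (-1.55 to 0.87) at 24 hours and 0.25 (-0.96 to 1.46) at 72 hours, with adjusted p = 0.956, 1 and 1 in limma. Without both low-signal arrays the 24-hour value turned to 0.21 (-0.52 to 0.94). With usable spots on 2 fed arrays and 2 arrays of 12 hours, changes of Mdh1 in either direction were not detectable within these intervals.

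For the mitochondrial malate dehydrogenase Mdh2 (A_65_P19883, listed under its older name Mor1), the usable log2 ratios lay between 0.06 and 0.12 in fed mice and between -0.04 and 0.26 on the 9 fasted arrays. The log2 fold change was -0.05 (-0.42 to 0.31), 0.05 (-0.31 to 0.41) and -0.00 (-0.37 to 0.36) at 12, 24 and 72 hours. The difference between Mdh1 and Mdh2 could be formed on only 1 fed array, at 0.90, against -0.83 to 1.55 on 8 fasted arrays. The fasted mean was lower by 0.06, and a single fed array allows no p below 0.111 (exact permutation test, p = 0.889). When outlier spots were kept, which gave 9 fasted and 3 fed arrays, the difference was -0.07 (exact permutation test, p = 0.959).

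The aspartate-glutamate carrier Slc25a13 (A_65_P12803) had higher values on some arrays of 12 and 24 hours. Its log2 ratio was 0.08, 0.13 and -0.19 in fed mice and 0.93, -0.07 and 0.77 at 12 hours. It was 1.13, 1.27 and -0.04 at 24 hours and -0.06, 0.23 and 0.44 at 72 hours. The low-signal arrays lay within the fed range, and the other 12- and 24-hour arrays lay above it. With all arrays the changes were 1.45-, 1.72- and 1.15-fold (limma, adjusted p = 0.956, 1 and 1). Without the low-signal arrays Slc25a13 rose 1.79-fold at 12 hours (limma's adjusted p = 0.0273) and 2.29-fold at 24 hours (limma's adjusted p = 0.00473), and did not pass at 72 hours (1.15-fold, limma's adjusted p = 0.613). In that fit all 12- and 24-hour arrays were from day 3 and no fed array was, so that day and fasting cannot be told apart in this rise. Within day 1, the low-signal arrays of 12 and 24 hours differed from the fed array by -0.15 and -0.12 on the log2 scale. It then fell between 24 and 72 hours by 1.00 on the log2 scale (limma's adjusted p = 0.0294), a step at which 0.906% of all probes were called lower. The signals behind these ratios were low. On replicates 1 and 2 of 24 hours the reference signal was 156 and 167 units over a background of 59 units, and at 72 hours 266.5 to 302 units over 139 to 154 units. These groups were quantified on different days, and the part of the background in the fall was not tested. The further carriers Slc25a11, the malate-oxoglutarate carrier, and Slc25a12 have no probe under a name given in the files.

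**Figure D5:**
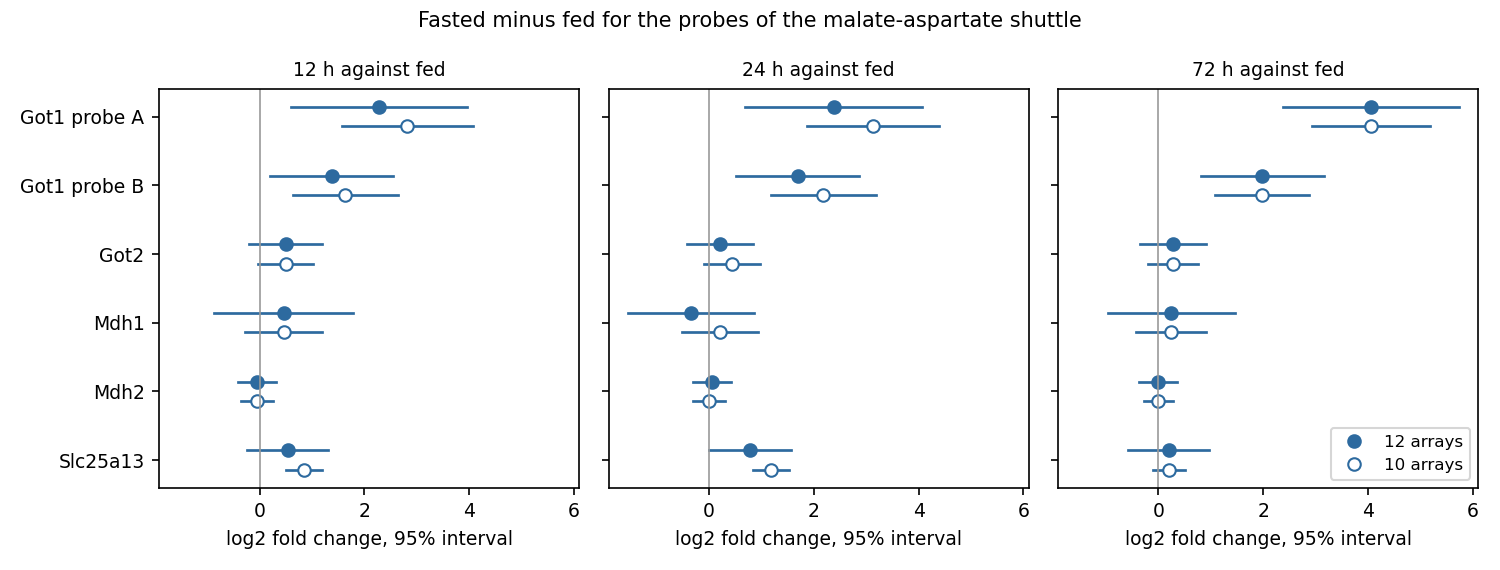
Log2 fold change against fed mice with its 95% confidence interval (limma) for the probes of the malate-aspartate shuttle at each fasting time. Filled points are from all 12 arrays and open points from the 10 arrays without the low-signal ones. The intervals of both Got1 probes lay above 0 at each time point, those of Got2, Mdh1 and Mdh2 included 0, and that of Slc25a13 lay above 0 at 24 hours in both fits (from 0.01 with all arrays) and at 12 hours only without the low-signal arrays.

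Between fasting times, probe A differed by 0.10 from 12 to 24 hours and by 1.68 from 24 to 72 hours on the log2 scale (limma, adjusted p = 0.997 and 1, unadjusted p = 0.903 and 0.0503). The corresponding values of probe B were 0.32 and 0.29 (limma, adjusted p = 0.996 and 1). Without the low-signal arrays the step from 24 to 72 hours was 0.93 for probe A and -0.20 for probe B (limma, adjusted p = 0.349 and 0.822), so that the direction of the latter depended on these arrays. The order of the Got1 means, fed below 12, 24 and 72 hours, was the same for both probes with all arrays, and the neighbouring fasting times did not differ beyond their spread. For Got2 and Mdh1 the steps lay between -0.81 and 0.59 (limma, adjusted p of at least 0.996).

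In addition to the shuttle, 4 groups of neighbouring genes were examined, namely other mitochondrial carriers, other aminotransferases, enzymes of malate, oxaloacetate and aspartate metabolism, and other enzymes of cytosolic and mitochondrial NAD. With the shuttle these comprised 60 genes, of which 38 had a named probe, and 50 probes were tested. None was called at any time point with all arrays, and limma's unadjusted p was under 0.05 for 8, 7 and 6 of them at 12, 24 and 72 hours, against 3.92%, 3.04% and 1.55% of all probes. The 6 probes of the shuttle itself had a median log2 fold change of 0.52, 0.50 and 0.26, where the median of all probes was -0.01, -0.00 and -0.01, and 5 of the 6 lay above 0 at each time point. Without the low-signal arrays 9, 15 and 4 of these probes were called higher at 12, 24 and 72 hours, against 1.71%, 5.21% and 0.687% of all probes. In the same fit 0, 1 and 1 were called lower, against 0.895%, 3.61% and 0.149% of all probes. For all probes named below, the 12- and 24-hour calls of this fit compare arrays of day 3 with fed arrays of days 1 and 2, so that day and fasting cannot be told apart in them. Falls from 24 to 72 hours in this fit compare day 3 with day 2, and the same limit holds for them. The lists hold the member probes and were written with earlier results of these data known. Their counts beside the shares of all probes are therefore descriptions and not a test.

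Among the aminotransferases other than Got1 and Got2, Oat, ornithine aminotransferase, had the largest increase at each time point. It was 2.47-, 2.89- and 3.05-fold above fed mice (limma, adjusted p = 0.956, 1 and 1), and it was called at each time point without the low-signal arrays (3.29-, 4.53- and 3.05-fold, limma's adjusted p = 0.0286, 0.00755 and 0.0369). The lowest of this group were Kyat1 at 12 hours (log2 fold change -0.27), Psat1 at 24 hours (-0.16) and Bcat2 at 72 hours (-0.09). With all arrays the median log2 fold change of its 7 probes was -0.04, 0.12 and 0.03, against -0.01, -0.00 and -0.01 for all probes. Without the low-signal arrays it was 0.31, 0.18 and 0.03, against -0.03, -0.01 and -0.01. Bcat2, the mitochondrial branched-chain aminotransferase, and Aadat were called at 24 hours without the low-signal arrays (1.44- and 1.86-fold, limma's adjusted p = 0.0377 and 0.0484).

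In the group of malate, oxaloacetate and aspartate metabolism (15 probes tested), Asl had the largest increase. Asl, argininosuccinate lyase, splits the argininosuccinate that is made with aspartate in the urea cycle. It was 2.20-, 2.34- and 7.83-fold higher at 12, 24 and 72 hours (limma, adjusted p = 0.956, 1 and 1). It was called at 12 and 24 hours without the low-signal arrays (3.69-fold at both, limma's adjusted p = 0.0246 and 0.0116). The 72-hour value rests on the 1 array without an outlier flag, with no spread of its own, and its call (limma's adjusted p = 0.0131) borrows the spread of the other groups. Fed mice had 2 usable arrays for Asl. The cytosolic phosphoenolpyruvate carboxykinase Pck1, which draws on cytosolic oxaloacetate, was 2.02-, 1.77- and 1.84-fold higher, and was called at each time point without these arrays (limma's adjusted p = 0.0159, 0.00555 and 0.022), with 2 usable fed arrays. Adss2, adenylosuccinate synthase, was called without these arrays at 12 and 24 hours (A_65_P03946, 1.62- and 2.07-fold, limma's adjusted p = 0.0354 and 0.00516), while its other probe, A_65_P11290, was not called. ATP-citrate lyase, Acly, had the largest decrease, to 0.544-, 0.627- and 0.566-fold of fed mice, and did not pass in either fit. The medians of the group were 0.12, 0.08 and 0.01 on the log2 scale with all arrays, and -0.04, -0.04 and 0.01 without the low-signal arrays.

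Among other mitochondrial carriers (11 probes), the glutamate carrier Slc25a22 had the largest increase at 12 and 24 hours with all arrays, and Slc25a3 without the low-signal arrays. Slc25a22 was 1.86- and 2.02-fold higher with all arrays (limma, adjusted p = 0.956 and 1) and 2.06- and 2.73-fold higher without the low-signal arrays (limma's adjusted p = 0.0223 and 0.00352). Like Slc25a13, Slc25a22 then fell between 24 and 72 hours in that fit, by 1.24 on the log2 scale (limma's adjusted p = 0.0254). With all arrays this step was -0.80 and was not called. At 72 hours the ornithine carrier Slc25a15 had the largest value, at 2.24-fold (A_65_P17836), and passed at 24 hours only without the low-signal arrays (2.23-fold, limma's adjusted p = 0.0319) as did its other probe, A_65_P04703 (2.29-fold, limma's adjusted p = 0.021). The largest decreases were those of the adenine nucleotide carrier Slc25a5 (A_65_P12269) at 12 and 24 hours, to 0.626- and 0.606-fold, whereas its other probe, A_65_P20151, was at 1.61- and 1.22-fold, so that the probes disagreed. Probe A_65_P12269 was called lower at 24 hours without the low-signal arrays (0.507-fold, limma's adjusted p = 0.0228). The dicarboxylate carrier Slc25a10 was lowest at 72 hours (0.818-fold). The phosphate carrier Slc25a3 and the pyruvate carrier subunit Mpc1 were also called in that fit at 24 hours, at 2.97-fold (A_65_P04534, limma's adjusted p = 0.00665) and 2.01-fold (limma's adjusted p = 0.0357), and Slc25a3 at 12 hours (2.62-fold, limma's adjusted p = 0.0217), while the other Slc25a3 probe, A_65_P20560, was not called. The medians were 0.25, 0.28 and 0.21 with all arrays, and 0.42, 0.74 and 0.21 without the low-signal arrays.

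Of the other NAD-linked enzymes (11 probes), 7, 7 and 10 lay below the fed mean at 12, 24 and 72 hours with all arrays. Their medians were -0.12, -0.45 and -0.38 on the log2 scale. Without the low-signal arrays 5, 7 and 10 lay below it, with medians of 0.07, -0.14 and -0.38, so that the direction at 12 hours depended on these arrays. Gpd1, the cytosolic enzyme of the glycerol-phosphate shuttle, was highest at 12 and 24 hours, at 1.79- and 1.52-fold (limma, adjusted p = 0.956 and 1), and without the low-signal arrays it was called higher at both (2.55- and 2.11-fold, limma's adjusted p = 0.0428 and 0.045). It then fell by 1.46 on the log2 scale from 24 to 72 hours in that fit (limma's adjusted p = 0.0468). Gpd2, its mitochondrial partner, had 3 probes between 0.723- and 1.15-fold at all time points and was not called in either fit. Gapdh was highest at 72 hours with a 1.06-fold change. The largest decreases were those of Adh1, alcohol dehydrogenase, at 12 hours (0.288-fold, limma's adjusted p = 0.956) and of Idh1, the cytosolic isocitrate dehydrogenase, at 24 and 72 hours (A_65_P15077, 0.532- and 0.534-fold). The other Idh1 probe, A_65_P01154, fell to 0.617-fold at 72 hours without the low-signal arrays (limma's adjusted p = 0.0312). Bcat2 and Adss2 (A_65_P03946) from the groups above also fell from 24 to 72 hours in that fit, by 0.62 and 0.87 on the log2 scale (limma's adjusted p = 0.0477 and 0.0303).

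The named genes whose log2 ratios across arrays were most like those of Got1 probe A were Ctsl, Lpin1, Cdkn1a, Ddit4 and Retreg1, with Pearson's r of 0.959, 0.948, 0.938, 0.938 and 0.937 over 12 arrays (11 for Cdkn1a). Ctsl encodes the lysosomal protease cathepsin L, Lpin1 a phosphatidate phosphatase, Cdkn1a the cell-cycle inhibitor p21, Ddit4 an inhibitor of mTORC1 and Retreg1 a receptor for the autophagy of endoplasmic reticulum. The other Got1 probe ranked 5 among 19999 probes. Without the low-signal arrays Retreg1 and Lpin1 were again among the first 5 named genes (r = 0.981 and 0.964 over 10 arrays), with Ccnl1, Il1r1 and Atl2. With Got1 probe A, r was 0.468 for Got2 (11 arrays), 0.449 for Mdh1 (10 arrays), 0.409 for Slc25a13 (12 arrays) and -0.0096 for Mdh2 (11 arrays).

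Got2 and Mdh1 resembled each other more, with r = 0.861 over the 10 arrays on which both were usable, and 0.859 over 9 of these without the low-signal arrays. Many other probes were closer to each. With all arrays Mdh1 ranked 291 among 19551 probes for Got2, and Got2 ranked 655 among 18607 for Mdh1. The named genes most like Got2 were Eif5a, Smap2 and Rpl28 (r = 0.976, 0.969 and 0.964, over 11, 9 and 11 arrays), of which Eif5a and Rpl28 belong to the translation machinery. Among those most like Mdh1 were Macf1 and Dnajc10 (r = 0.982 and 0.981, over 9 and 10 arrays). Arrays that share a day and a signal level enter these correlations as separate points, and no p is attached to them.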

How the data were processed

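RNA of fed and fasted mouse liver was measured on 12 two-colour Agilent arrays, grouped by their deposited titles. The deposited scanner files hold median intensities of spot and local background, quantified with Agilent's Feature Extraction software and not normalized. The log10 ratios in these files, per the file headers, were background-subtracted and dye-normalized by the software, and were used as an alternative. The deposited value table held the same log10 ratios with the sign turned, so that sample over reference is positive where the sample is brighter (column medians -0.0028 to 0.006), and was not used further. The authors themselves normalized by quantiles and tested by a Split-Factor ANOVA.

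Here, 1075 control and 91 retired of 21446 spots were left out, background was corrected by normexp (offset 50), the 24 channels were quantile-normalized, and log2 of sample over reference was tested. A probe was tested if every array of at least 1 group had it well above background for the sample. One design with the 4 groups was fitted in limma 3.58.1 (R 4.3.3) with Benjamini-Hochberg adjustment over all probes tested. Differences between probes were tested by exact two-sided permutation of arrays. Scripts were tested on simulated data. Symbols came from RefSeq tables (8570 probes), and Mdh2 and 5 further probes from descriptions. Named were the 4 probes, other shuttle probes, and from each list the genes called or with the largest rise or fall, plus the genes most alike over at least 9 arrays, of which 1 is not reported here. Members and lists were chosen with earlier results of these data known. Replicates are separate pools of livers per the labels, and the number of arrays limits the precision. Alternatives and arrays left out are given in the closing section.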

Additional observations from a re-analysis of the deposited data

How the results depend on the processing

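Under loess normalization, plain background subtraction, the log ratio of the scanner software or no filter on dim probes, none of the 4 probes was called and each kept its direction against fed mice. With array weights, both Got1 probes passed at 12, 24 and 72 hours (probe A at 2.54, 3.13 and 3.87 and probe B at 1.62, 2.36 and 2.03 on the log2 scale, adjusted p in limma from 0.00058 to 0.011). These weights were lowest for the low-signal arrays (0.037 and 0.099) and highest for fed replicate 2 (7.15). Fed replicates 1 and 3 had 0.546 and 1.57. The low-signal arrays thus counted for little, and at 12 and 24 hours mainly day 3 was compared with fed arrays of days 1 and 2. Without both low-signal arrays, the called values were 2.82, 3.13 and 4.06 for probe A and 2.18 at 24 hours for probe B. Leaving out 1 array at a time called none of the 4 probes, and gave 1.83 to 2.82, 1.82 to 3.13 and 3.62 to 4.81 for probe A. Mdh1 turned against fed mice to -0.35 at 12 hours with outlier spots kept and -1.09 with the day as a block, to 0.40 at 24 hours and -0.76 at 72 hours in the sample channel alone, and to 0.12 at 24 hours with weights and 0.21 without the low-signal arrays. With 1 array left out it ranged from -0.65 to 0.21 at 24 hours and from -0.11 to 0.56 at 72 hours. Got2 turned to -0.35 and -0.41 at 12 and 24 hours with the day as a block. The cause of these turns was not tested. With the day as a block, the 12- and 24-hour values of Got2 and Mdh1 are tied to fed mice by 1 low-signal array of 24 hours and 1 fed array.

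Steps between fasting times turned as follows. From 12 to 24 hours, Got2 was 0.33 and Mdh1 0.26 in the sample channel alone, and Mdh1 0.18 with outliers kept. From 24 to 72 hours, Got1 probe B was -0.33 with weights and -0.20 without the low-signal arrays, Got2 -0.77 in the sample channel, -0.057 with weights and -0.15 without those arrays, and Mdh1 -1.16 in the sample channel. From 12 to 72 hours, Got2 was 0.039 and Mdh1 0.77 with outliers kept, and 0.72 and 1.23 with the day as a block. With 1 array left out, probe A ranged from -0.47 to 0.85 and probe B from -0.053 to 0.80 between 12 and 24 hours, probe B from -0.20 to 0.90 and Got2 from -0.15 to 0.30 between 24 and 72 hours, and Got2 from -0.48 to 0.047 and Mdh1 from -0.57 to 0.10 between 12 and 72 hours.

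Of all probes, 1, 1 and 2 were called at 12, 24 and 72 hours. The counts were 0, 0 and 0 with the scanner software's log ratio, 0 at 12 and 24 hours in the sample channel alone, 3 and 2 at 12 and 24 hours with outliers kept, 0 at 72 hours with loess, 4675, 2410 and 12 with the day as a block, 1916, 2113 and 826 with weights, 523, 1772 and 168 without the low-signal arrays, and 0 to 3, 0 to 7 and 1 to 4 with 1 array left out. Of the shuttle and neighbouring probes, 0 were called, against 13 and 4 at 12 and 24 hours with the day as a block, 18, 17 and 12 with weights, and 9, 16 and 5 without the low-signal arrays. With the day as a block, 12 and 24 hours are tied to fed mice by the 3 arrays of day 1 alone. For Got2 and Mdh1 the 12-hour spot of that day was flagged, which leaves the fed array and the low-signal array of 24 hours.

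Same-numbered replicates were different mice, and their deviations from the group means correlated from -0.645 to 0.633 over 18 pairs, so that the numbers do not pair the arrays. Each of 2 of the 12 arrays correlated best with an array of its own number. With a replicate block, 2 and 0 probes were called at 12 and 24 hours, and the excess of Got1 probe A over probe B was 1.22 (exact permutation within blocks, p = 0.0625). That excess was 1.35 (exact permutation, p = 0.0714) on arrays of days 1 and 2 only, and 1.10 to 1.41 with 1 array left out. The excess of Got1 over Got2 was 3.11 (exact permutation, p = 0.0571) on those days, 2.97 with the day as a block, an alternative added after seeing the data, and 2.52 to 3.05 with 1 array left out. Mdh1 minus Mdh2 turned to 1.04 in the sample channel alone, 0.27 with the replicate block, 0.11 with the day as a block and 0.18 without the low-signal arrays, and ranged from -0.16 to 0.18 with 1 array left out.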
